A study of Macaca mulatta with 24 samples.

Results

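Gene expression in the colon of rhesus macaques was compared between day 12 and day 7 after total-body irradiation (TBI) with a single uniform dose of gamma rays. The comparison took the samples that the labels place on day 12, 4 in all, and those placed on day 7, 8 in all, together 12 of the 24 samples of the series. On day 7 there were 4 animals that had received 6.7 Gy and 4 that had received 7.4 Gy, and on day 12 there were 2 animals at each dose. All were young adult male animals, each sample came from a different animal without pooling, and the colon piece held the whole wall, with epithelium, immune cells, stroma and muscle. The question was how the tissue differed between the later and the earlier day, with dose held as a covariate. As a reference for the levels, 4 unirradiated animals were used, whose labels place them on day 4. A text label names a last day other than 12, and the labels of the samples themselves were followed.

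The lining of the colon is renewed from stem cells in the crypts, whose daughters become absorptive colonocytes, mucus-secreting goblet cells, hormone-secreting enteroendocrine cells or chemosensory tuft cells. Radiation at the doses used here kills dividing cells of the crypt and of the bone marrow, and lymphocytes are among the most radiosensitive cells of the body. A damaged lining regrows within days, while circulating lymphocytes and platelets return more slowly because the marrow must produce them first. In a piece of whole tissue, fewer cells of a type and less RNA per cell cannot be told apart.

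Each value below is the log2 signal of a probe minus the 75th percentile of the transcript probes on the same array, so that 0 marks the 75th percentile and a difference of 1 is a 2-fold change. On the 12 arrays, 66.8% to 85.0% of the probes were well above background and the 75th percentile lay between 676.3 and 857.9 intensity units. No spot was saturated. Across probes, which are not independent replicates, arrays of the same dose and day correlated at 0.968 to 0.985 and arrays of different groups at 0.967 to 0.985. The defining colonocyte genes GUCA2A and SLC26A3 were well above background on all 12 arrays. Slides named C to F each held 1 day 7 and 1 day 12 array of the same dose, whereas slides A and B held day 7 arrays only and were scanned on another day. All day 12 arrays lay at position 4 of their slide, as did 2 of the day 7 arrays, both at 7.4 Gy; the other 6 day 7 arrays lay at position 3. Day therefore moved largely with array position. Slide carried 54.8% of the variance of the first principal component and day carried 38.0%. Slide has more levels than day, which raises its share by construction, so the 2 shares cannot be ranked. The array of 6.7 Gy day 12 replicate 1 had 712 spots marked as outliers, against 37 to 118 on the others.

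Few single genes separated the 2 days. Of 37002 probes tested with limma, 20 passed an adjusted p of 0.05 with at least a 2-fold difference, which is 0.0541% of those tested. Of these, 16 (0.0432%) were higher on day 12 and 4 (0.0108%) were lower. With each gene represented by its brightest probe, 9 of 14397 genes passed (0.0625%). From day 7 to day 12, BTLA, LGR6, NKAPL, IL6, ABCC2, ACP5 and C4H6orf52 rose (0.0486% of genes) and RBM3 and PSD2 fell (0.0139%). At an unadjusted p under 0.05, 806 genes (5.6%) were higher on day 12 and 779 (5.41%) were lower, so neither direction prevailed. The 4 day 12 values lay wholly above or below the 8 day 7 values for 262 genes (1.82%). The median difference over all genes was 0.004. The single-gene calls were sensitive to block terms. No probe passed with slide as a fixed block, with array position as a block or with the replicate number, which is no batch, as a block. Fixed blocks take up some of the 9 residual degrees of freedom, so a batch and lost precision cannot be told apart here. Probes at an unadjusted p under 0.05 with at least a 2-fold difference were 561 without a block. They were 714 with slide, 993 with array position and 614 with replicate number. With slide as a random block 34 probes were called, among them all 20. Leaving out 1 array gave between 5 and 70 called probes, the highest count without 7.4 Gy day 7 replicate 3 and the next highest, 54, without 7.4 Gy day 7 replicate 2.

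**Figure D1:**
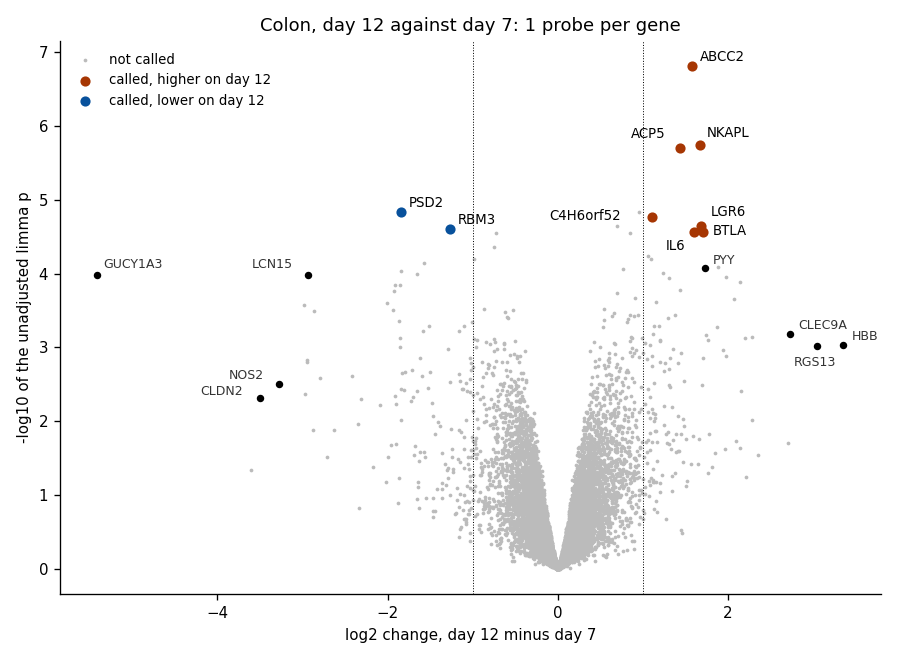
Each point is 1 of 14397 genes, with its log2 difference between day 12 and day 7 on the x axis and −log10 of the unadjusted limma p on the y axis; the dotted lines mark a 2-fold difference. The 9 called genes are coloured and lie between 1.11 and 1.70 on the higher side and at −1.27 and −1.85 on the lower side, while the largest differences, such as −5.41 for GUCY1A3 and 3.36 for HBB, belong to genes that did not pass.

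The called genes are given by role, starting with those of epithelial transport and signalling. ABCC2 encodes an efflux pump of apical membranes that exports conjugated compounds. Its log2 signal on day 12 was −1.09 and −1.16 in the 6.7-Gy animals and −1.41 and −1.66 in the 7.4-Gy animals, against a lowest, median and highest of −3.28, −2.89 and −2.51 on day 7. All 4 day 12 animals lay above all 8 day 7 animals, by 1.57 ± 0.14 (SE) on the log2 scale, or 2.98-fold, with an adjusted p of 0.00143 in limma. The 4 controls spanned −3.22 to −2.20, so the day 12 animals also lay above every control. LGR6, a receptor for R-spondins that strengthens WNT signals, measured −2.30, −2.65, −2.26 and −2.46 on day 12 and −4.70, −4.24 and −3.28 as the lowest, median and highest on day 7. The groups did not overlap and the rise was 3.21-fold (1.68 ± 0.25 SE on the log2 scale, adjusted p = 0.0459). LGR6 was lower on day 7 than in controls (−1.36, adjusted p = 0.0196), and the 4 controls ranged from −2.998 to −2.547. On day 12, 6.7 Gy replicate 2 lay within that range and the other animals lay above it. AQP3 encodes a channel for water and glycerol in the basolateral membrane of colonic epithelium. It was named after its values were seen, because a probe other than its brightest was called: that probe measured −0.21, −0.53, 0.01 and −0.39 on day 12 and at most −0.86 on day 7, a 2.19-fold rise (adjusted p = 0.0459). The brightest AQP3 probe gave a like difference of 1.09, with an adjusted p of 0.0754 that did not pass.

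Genes of immune cells formed the second set of calls. BTLA, an inhibitory receptor of B and T lymphocytes, measured −1.98, −2.07, −1.88 and −1.61 on day 12 and ranged from −4.23 to −2.60 on day 7, with a median of −3.63. The 2 days did not overlap, and BTLA rose 3.25-fold (1.70 ± 0.26 SE, adjusted p = 0.0459). The day 12 values fell within the controls' range of −2.95 to −1.62 except for 7.4 Gy replicate 2, which lay marginally above it. IL6, an inflammatory cytokine that also acts on plasma cells and epithelium, measured −2.27, −2.39, −1.88 and −3.19 on day 12 and −4.70, −4.01 and −3.65 as the lowest, median and highest on day 7. No day 7 animal reached the lowest day 12 animal, and the rise was 3.02-fold (1.60 ± 0.24 SE, adjusted p = 0.0459). The 4 controls were widely spread, from −4.89 to −1.58, and held the whole day 12 range. ACP5, the tartrate-resistant acid phosphatase of osteoclasts and tissue macrophages, measured 0.84, 0.75, 1.04 and 1.04 on day 12 and −0.80, −0.64 and 0.36 on day 7. All day 12 animals lay above both day 7 and the controls, whose highest value was 0.60, and the rise over day 7 was 2.72-fold (1.44 ± 0.17 SE, adjusted p = 0.00918).

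TLR9, the endosomal receptor for unmethylated CpG DNA that B cells and plasmacytoid dendritic cells carry, had the lowest adjusted p of any probe, but in 1 of its 4 probes only, and it too was named after its values were seen. The called probe measured −2.85, −2.25, −2.68 and −2.64 on day 12, against −4.55, −4.38 and −4.30 on day 7, a 3.47-fold difference (1.80 ± 0.12 SE, adjusted p = 0.000243). The day 7 animals lay close together, and the controls, at −4.33 to −3.80, also lay below every day 12 animal. The other TLR9 probes differed by −0.02, 0.22 and 0.21 (adjusted p = 0.978, 0.611 and 0.797), so the probes of this gene disagree. The mean log2 level over the 11 tested B-lymphocyte genes lay between −3.80 and −2.96 on day 7 and between −2.89 and −2.17 on day 12. In the controls it spanned −3.56 to −1.19, so that it reached above every day 12 animal, unlike the controls of this TLR9 probe. The defining B-cell genes CD79A and CD79B were both well above background on all 12 arrays. The part of B-cell abundance in the BTLA and TLR9 results was not tested.

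The remaining calls were genes of less settled function in the gut. NKAPL, a paralogue of a nuclear protein first described as an activator of NF-kB, measured −0.98, −1.44, −0.92 and −1.57 on day 12 and −3.18, −2.95 and −2.17 on day 7. It rose 3.18-fold with no overlap (1.67 ± 0.19 SE, adjusted p = 0.00918). C4H6orf52, an uncharacterised gene, measured −0.42, −0.02, −0.21 and −0.55 on day 12 and no more than −1.11 on day 7, a 2.16-fold rise (adjusted p = 0.0459), which placed day 12 near the control median of −0.36. RBM3, a cold-inducible RNA-binding protein, measured −0.89, −0.59, −0.36 and −0.76 on day 12 and −0.03, 0.62 and 1.20 on day 7. Every day 12 animal lay below every day 7 animal and below every control, whose lowest value was −0.10, and RBM3 fell 2.42-fold from day 7 (−1.27 ± 0.19 SE, adjusted p = 0.0459). PSD2, an exchange factor for the small GTPase ARF6, fell by 1.85 on the log2 scale (adjusted p = 0.0459), but its probe was well above background on 6 of 8 day 7 arrays and 1 of 4 day 12 arrays and the groups overlapped; it is named because it was 1 of only 2 genes called lower. A probe of NDUFAF5, a factor for the assembly of mitochondrial complex I, fell by 1.21 (adjusted p = 0.0459), whereas the brightest probe of that gene differed by −0.02, and this gene too was named after its values were seen. Another 8 called probes carried no gene name, 7 of them higher on day 12 by 1.03 to 2.67 and 1 lower by 2.47. The highest of these was well above background on 0 of 8 day 7 and 2 of 4 day 12 arrays, so that it entered the test through day 12 alone, and was at least 2.87-fold higher on day 12. The lower probe was well above background on 0 of 4 day 12 arrays, so that it entered the test through day 7 alone. It was at least 1.85-fold lower on day 12. These bounds set the mean of the brighter day against, for each array of the other, the dimmest signal counted as above background or the probe's own value, whichever was higher.

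**Figure D2:**
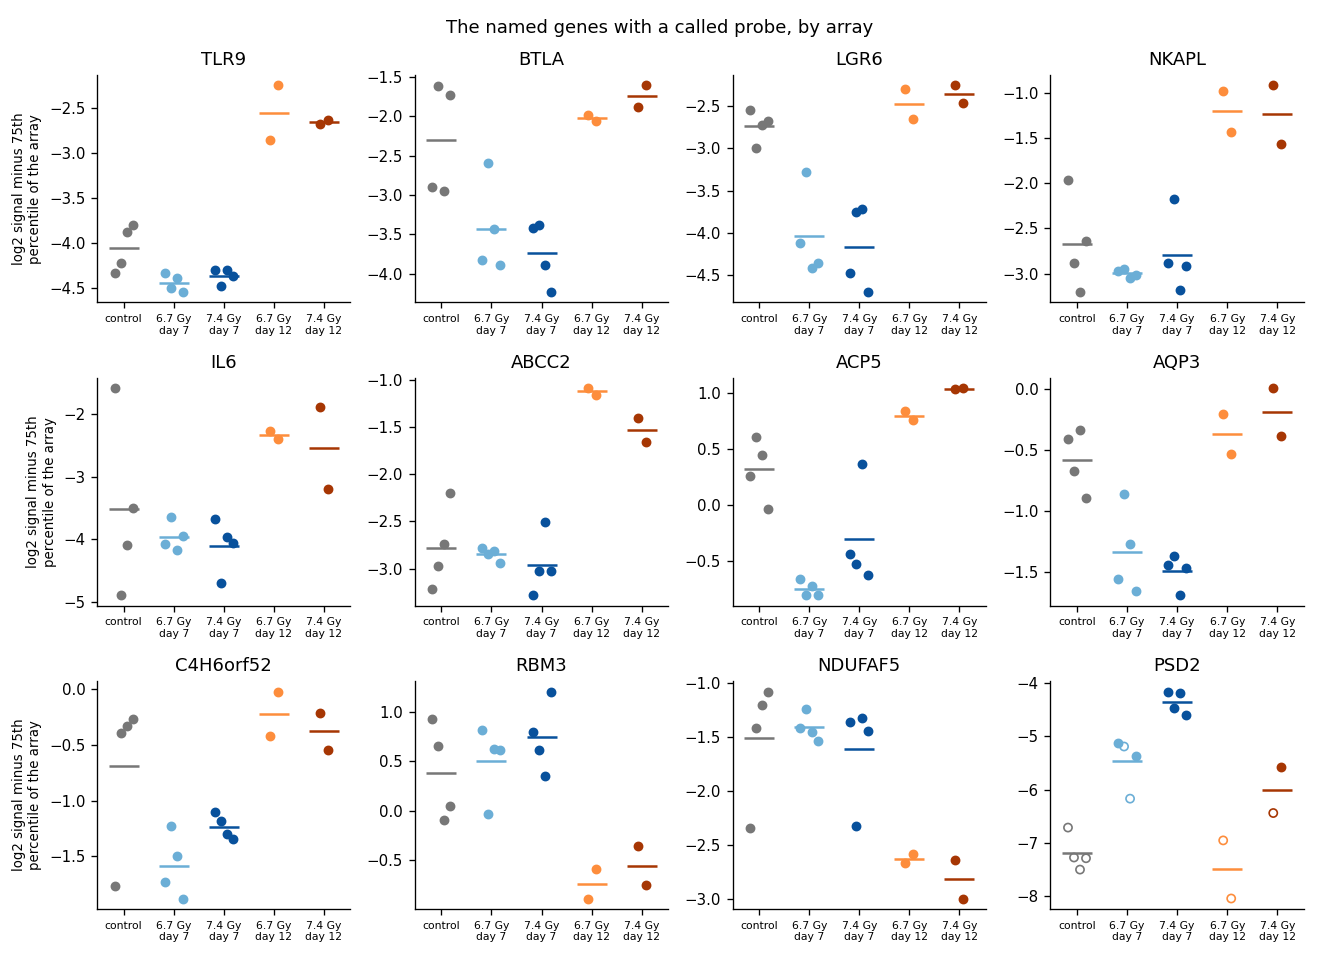
Log2 signal relative to the 75th percentile of the array, by array, for 12 named genes with a called probe; columns are the controls and each dose and day, points are animals, open points are arrays on which the probe was not well above background and lines are group means. In all panels but that of PSD2 the 4 day 12 animals sit wholly above or wholly below the 8 day 7 animals; the TLR9, AQP3 and NDUFAF5 panels show the called probe, not the brightest one.

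With no limit on the fold, 25 probes (0.0676%) passed, and the genes of the further 5 are given here; they were chosen after the values were seen. TSC22D3, the glucocorticoid-induced leucine zipper, was higher on day 12 by 0.69 ± 0.10 (SE). Its day 12 values of 1.99, 2.04, 1.61 and 1.68 lay above the day 7 range of 0.91 to 1.39 and below the control median of 2.14. SELPLG, the leukocyte ligand of P-selectin, differed by 0.85 and SMR3A, a secreted protein best known from salivary gland, by 0.96. IGFBP4, which binds insulin-like growth factors, was lower by 0.72, with values of 0.93, 1.22, 1.095 and 0.94 on day 12 against 1.52 to 1.97 on day 7. The adjusted p was 0.0459 for each of them in limma. The fifth probe, without a gene name, was lower by 0.92.

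Because few genes fell, the lower side was filled with genes of at least 2-fold difference and no overlap between the days that did not pass the adjusted p. CREB3L3, a transcription factor of lipid metabolism in liver and small intestine, measured between −3.26 and −3.02 on day 12 and between −2.35 and −0.66 on day 7 (difference −1.57, adjusted p = 0.0837). MNP1A, a myeloid alpha-defensin of macaques, measured −0.50, −0.14, 0.22 and −1.0 on day 12 and 0.82 to 2.22 on day 7 (difference −1.65, adjusted p = 0.0875). Its day 12 level was below the control level by 2.17 (adjusted p = 0.0432). The theta-defensin gene RTD1B, chosen after its values were seen, had a like difference of −1.91. LCN15, an intestinal lipocalin, was well above background on all 8 day 7 arrays and 1 day 12 array, with a difference of −2.94 (adjusted p = 0.0875).

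The largest differences were wide in spread. GUCY1A3, a subunit of the nitric oxide receptor of smooth muscle, measured −0.80, −0.98, −1.12 and −1.60 on day 12, whereas day 7 ranged from −0.39 to 6.08 with a median of 4.76 and controls from 2.85 to 5.91. Every day 12 animal lay below all others of the 2 groups, the difference was −5.41 and the adjusted p was 0.0875. The mean of the smooth muscle list, at 2.65 to 3.32 on day 12 and 2.14 to 3.34 on day 7, overlapped between the days. HBB, the beta chain of haemoglobin, measured −2.21, −2.61, −1.59 and 1.14 on day 12 and between −6.15 and −2.95 on day 7 (difference 3.36, adjusted p = 0.168). Controls lay far above, at a median of 2.83, and HBB was lower than in controls by 4.12 on day 12 (adjusted p = 0.0158). The other 6 tested red-cell genes differed by −0.22 to 0.15.

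The size of the called differences on single slides is given as a description. Since called probes hardly overlapped between the days, their direction within a slide, a position or a dose followed from the call and adds nothing to it. ACP5 was higher on day 12 by 1.56, 1.56, 1.47 and 1.56 on slides C, D, E and F, and IL6 by 1.90, 1.55, 1.79 and 1.51. ABCC2 gave 1.72, 1.78, 1.88 and 1.36, and RBM3 gave −1.51, −1.21, −1.16 and −1.37. NKAPL was more uneven, with 2.08, 1.57, 1.97 and 0.61. At array position 4, where both days could be compared at 7.4 Gy, the difference was 1.23 for ABCC2, 1.17 for ACP5, 2.32 for BTLA and −1.34 for RBM3. Restricted to that position, no called probe passed the adjusted p, and 1 other probe did.

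**Figure D3:**
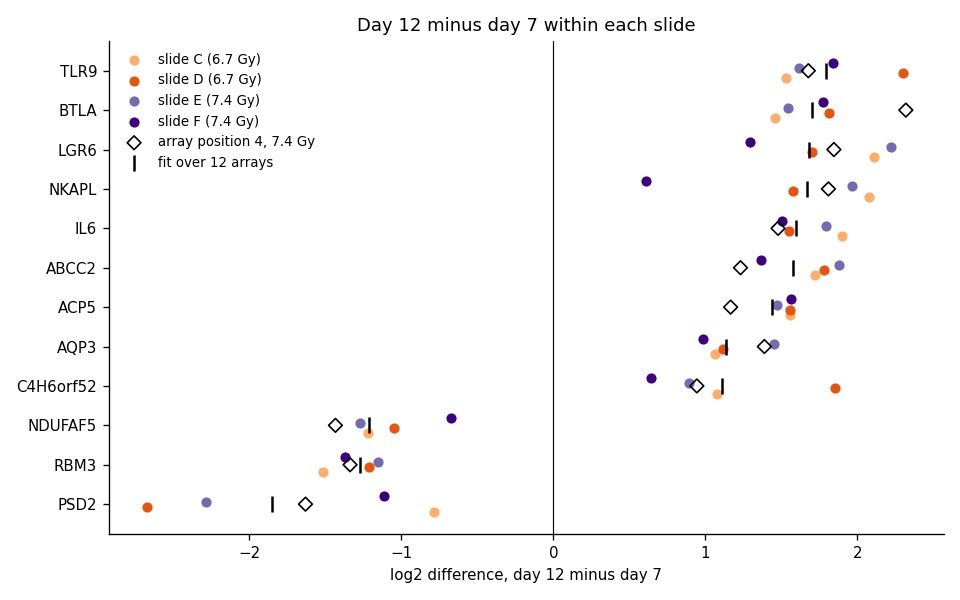
Log2 difference between the day 12 and the day 7 array of the same slide and dose, for slides C to F (points) and the 12 named genes with a called probe, with the difference at array position 4 at 7.4 Gy (diamonds) and the 12-array fit (ticks). The pairs lie close together for ACP5 (1.47 to 1.56) and far apart for PSD2 (−2.67 to −0.78).

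The change between days was then taken at each dose. At 6.7 Gy 4 probes were called (0.0108% of those tested), all higher on day 12: ABCC2 by 1.72 (adjusted p = 0.0388), the TLR9 probe by 1.89 (adjusted p = 0.00863) and 2 probes without a gene name. At 7.4 Gy the TLR9 probe alone passed (0.0027%), with 1.70 and an adjusted p of 0.0476. BTLA differed by 1.41 at 6.7 Gy and 1.99 at 7.4 Gy, IL6 by 1.63 and 1.56, ACP5 by 1.54 and 1.34, LGR6 by 1.56 and 1.80, and RBM3 by −1.25 and −1.30. Of 36982 probes, none passed the test of the difference between doses in limma (0%), and the smallest adjusted p was 0.0959. At an unadjusted p under 0.05 there were 1110, fewer than such a p gives by chance alone. With 2 animals per dose on day 12, this does not show that the doses acted alike.

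Set against the unirradiated animals, the 9 called genes stood in different places. The 4 controls all lay at array position 1 of slides A to D, so the difference of either day from controls cannot be told apart from array position. Their labels place them on day 4, which matches neither day. ABCC2 did not pass on day 7 (−0.12 against controls) and was higher on day 12 (1.45 ± 0.21 SE, adjusted p = 0.0204). LGR6 was lower on day 7 and measured 0.32 above controls on day 12, which did not pass. PSD2, well above background on 0 of 4 control arrays, was at least 1.67-fold higher on day 7 (adjusted p = 0.00187) and was above background on 1 of 4 day 12 arrays. The other 6 genes were called in neither comparison: BTLA went from −1.29 to 0.42, IL6 from −0.52 to 1.08, ACP5 from −0.84 to 0.60, NKAPL from −0.22 to 1.45, C4H6orf52 from −0.72 to 0.39 and RBM3 from 0.24 to −1.03. On day 7 ACP5 passed the adjusted p against controls in limma (0.0364) and fell short of the call only by its fold. Both comparisons use the same 4 controls. Over all genes, 100 (0.695%) were called between day 7 and controls and 7 (0.0487%) between day 12 and controls. Those 7 were ABCC2, PDK4, the kinase that restrains pyruvate oxidation (1.93 higher), LOC721445 (2.28 higher), MSN, which links actin to the membrane (1.60 lower), SERPINA2 (2.20 lower), MNP1A and HBB. Day 7 entered with 8 arrays and day 12 with 4, so the 100 and the 7 do not measure how far each day lay from controls. At an unadjusted limma p under 0.05 with at least a 2-fold difference, 843 of 37002 probes differed on day 7. On day 12 these were 534 of 36982.

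Lists of genes for cell types and pathways were described next, by how many of their tested members differed at an unadjusted p under 0.05, to be read against 5.6% higher and 5.41% lower over all genes, and by the median difference, to be read against 0.004. Of 36 lists, 1 held a called gene, IL6 in the TNF and NF-kB list. The median was 0.25 or more in 10 lists and −0.25 or less in 9. These are descriptions of the measured values and no test of the lists.

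**Figure D4:**
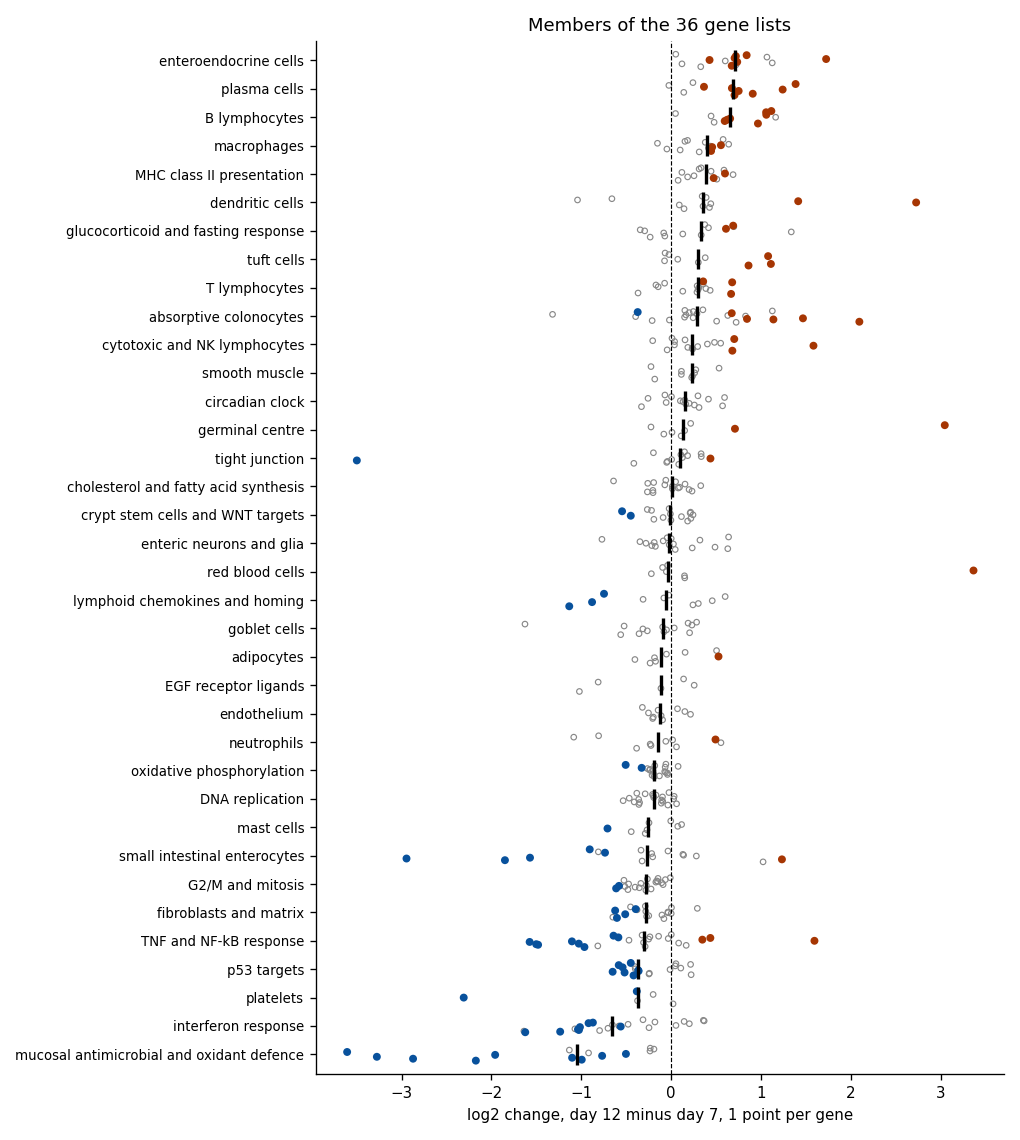
Log2 difference between day 12 and day 7 for each tested member of the 36 lists; filled points have an unadjusted limma p under 0.05, bars are list medians and the dashed line is the median of all genes, 0.004. Medians run from 0.71 for enteroendocrine cells to −1.05 for mucosal antimicrobial and oxidant defence.

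Hormone-secreting cells of the epithelium had the highest median. All 14 tested enteroendocrine genes had higher means on day 12, 7 of them at an unadjusted p under 0.05, and the median difference was 0.71. PYY, the satiety peptide of L cells, measured 1.83, 0.70, 1.23 and 0.68 on day 12 and −1.26, −0.59 and 0.22 on day 7. The days did not overlap, and the difference of 1.73 (SE 0.29) had an adjusted p of 0.0864 in limma, which did not pass. Somatostatin (SST) differed by 0.84, the secretory granule proteins CHGB and SCG2 by 0.68 and 0.71, the calcium sensor SCGN by 0.72, the transcription factor NEUROD1 by 0.74 and the prohormone convertase PCSK1 by 0.43. For CHGB 1 day 12 spot was marked as an outlier and left out. The mean over the list was −0.14, −0.69, −0.40 and −0.51 in the day 12 animals and at most −0.81 on day 7, so the days did not overlap, and the difference was positive in all 4 slide pairs (1.05, 0.36, 0.76 and 0.30). The median difference from controls went from −0.25 on day 7 to 0.35 on day 12.

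Markers of absorptive colonocytes had a median of 0.29, with 5 of 23 higher and 1 lower at an unadjusted p under 0.05. GUCA2B (uroguanylin), a peptide that regulates salt and water secretion, measured 6.32, 6.54, 5.75 and 5.92 on day 12 and 3.11 to 5.72 on day 7, without overlap (difference 1.47, adjusted p = 0.315). Its relative guanylin (GUCA2A) differed by 0.85, the chloride and bicarbonate exchanger SLC26A3 by 0.68 with 1 day 12 spot left out, and the exchanger cofactor CHP2 by 1.14. CA1, a carbonic anhydrase of surface colonocytes, differed by 2.10 with a day 7 range of −4.66 to 0.70 (adjusted p = 0.373). The lowest CA1 value came from 7.4 Gy day 7 replicate 4, which also had the lowest mean of the list, 0.95, whereas the other day 7 animals lay between 1.67 and 2.57 and the day 12 animals between 2.32 and 2.56. SLC51A, a bile acid transporter, was the member lower at that p (−0.37). The list differed from controls by a median of −0.31 on day 7 and 0.04 on day 12.

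Other epithelial lists went different ways. Tuft cells had a median of 0.30, with 3 of 9 higher at an unadjusted p under 0.05: the lipoxygenase ALOX5 (0.86), the kinase BMX (1.11) and POU2F3, the factor that specifies tuft cells (1.08). Goblet cells had a median of −0.09 (0.02 with spike-in scaling) and no member at that p, with MUC2, the main secreted mucin, differing by 0.04. Crypt stem cell genes and WNT targets had a median of −0.01 (0.16 with normexp) and LGR5 differed by 0.12; the members at an unadjusted p under 0.05 were the chloride cotransporter SLC12A2 (−0.55) and the EGF receptor antagonist LRIG1 (−0.45). Small-intestinal enterocyte genes had a median of −0.27 (0.08 with background correction by normexp), with 5 of 16 lower and 1 higher. Their array means did not overlap, lying between −2.34 and −1.81 on day 12 and −1.64 and −1.43 on day 7. Among them CPS1, an enzyme of the urea cycle, differed by −2.95, APOB, the core protein of chylomicrons, by −1.85, and SLC5A1, the sodium-glucose cotransporter, by −0.91, while the apolipoprotein APOC3 was 1.23 higher without overlap (adjusted p = 0.0875). CPS1 and APOB were well above background on 1 and 2 of the 4 day 12 arrays. CLDN2, the pore-forming claudin of leaky epithelia, measured −6.71, −5.57, −5.04 and −5.69 on day 12 and from −5.87 to 0.08 on day 7 (difference −3.50, adjusted p = 0.264). CLDN2 was well above background on all 8 day 7 arrays and 2 of 4 day 12 arrays, which limits the size of this difference. The barrier-forming claudin gene CLDN4 differed by 0.44 without overlap.

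**Figure D5:**
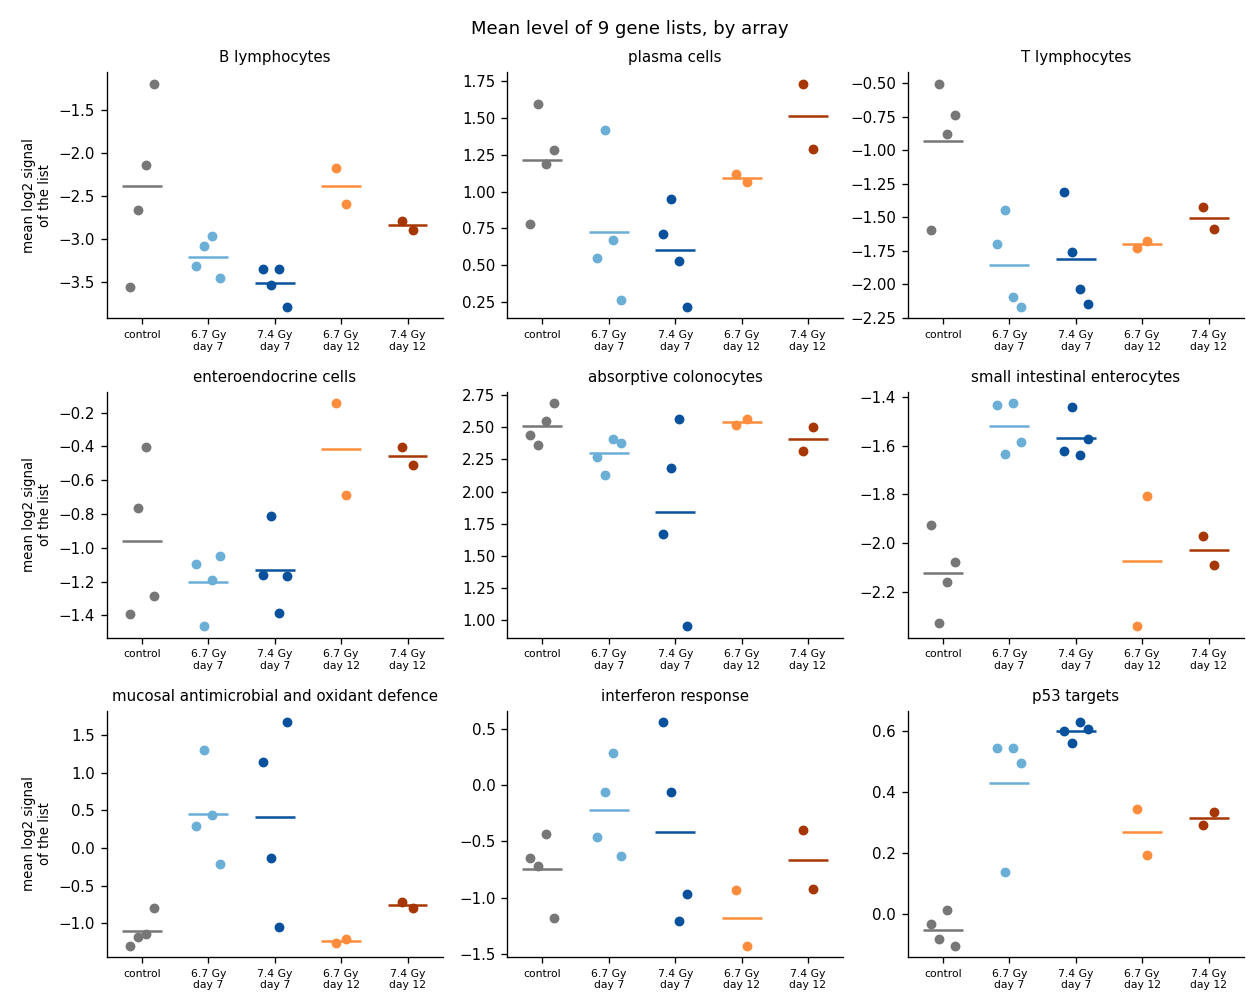
Mean log2 level over the tested members of 9 gene lists, by array, for controls and each dose on days 7 and 12; points are animals and lines are group means. The 4 day 12 animals lie apart from the 8 day 7 animals for B lymphocytes (day 12 at −2.89 to −2.17, day 7 at −3.80 to −2.96), and overlap them for mucosal defence, where a day 7 animal at −1.05 lies among those of day 12 at −1.26 to −0.71.

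Genes of B lymphocytes were higher on day 12. In the B-lymphocyte list all 11 tested genes had higher means, 7 of them at an unadjusted p under 0.05, and the median was 0.66. Array means were −2.17 and −2.60 at 6.7 Gy and −2.79 and −2.89 at 7.4 Gy on day 12, all above the day 7 range of −3.80 to −2.96, and the slide pairs gave 0.80, 0.86, 0.56 and 0.65. CD72, a coreceptor of the B-cell receptor, differed by 0.60 with no overlap (adjusted p = 0.188), CD79B, a signalling chain of that receptor, by 0.66, the B-cell Fc receptor-like gene FCRLA by 1.06, the BAFF receptor gene TNFRSF13C by 1.06 and the adaptor BANK1 by 0.97. Against controls the list median went from −1.11 on day 7 to −0.33 on day 12. The controls were widely spread, with array means of −3.56 to −1.19 that held every day 12 animal and overlapped day 7. The germinal-centre list had a median of 0.13 with 2 of 8 at that p, and its member RGS13, a regulator of chemokine signalling in germinal-centre B cells, measured −0.75, −1.96, −3.31 and −4.17 on day 12 and from −7.45 to −3.56 on day 7 (difference 3.05, adjusted p = 0.171). RGS13 was above background on 4 of 8 day 7 arrays and on all day 12 and control arrays. FCRL2, a related Fc receptor-like gene, was chosen after its values were seen. It entered the test through day 12 alone, being well above background on 0 of 8 day 7 and 2 of 4 day 12 arrays. FCRL2 was at least 1.89-fold higher on day 12, did not pass in limma (adjusted p = 0.0885) and adds nothing to the list.

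Plasma cell genes had a median of 0.69, with 7 of 10 higher at an unadjusted p under 0.05. MZB1, a chaperone for antibody assembly, measured 2.76, 2.41, 3.60 and 2.25 on day 12 and 0.78, 1.37 and 2.48 on day 7 (difference 1.24, adjusted p = 0.209). The highest day 7 animal reached into the day 12 range. TNFRSF17, the survival receptor BCMA, differed by 1.39, the transcription factors PRDM1 and IRF4 by 0.68 and 0.75, and the joining chain of antibodies, IGJ, by 0.14. All 4 slide pairs were positive for the list (0.45, 0.80, 1.02 and 0.35).

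T-lymphocyte genes had a median of 0.30, with 3 of 15 higher at an unadjusted p under 0.05 (CD2 0.67, THEMIS 0.68 and ZAP70 0.36) while the receptor chain CD3E differed by 0.13. Cytotoxic and NK genes had a median of 0.24, with 3 of 16 higher, among them GZMK, a granzyme of memory T cells (1.58), and the chemokine CCL5 (0.68). Both lists remained below controls on day 12 by their medians, at −0.66 and −0.57, after −0.95 and −0.89 on day 7. Of the T-lymphocyte genes 4 had lower means on day 12, down to −0.37. Array means of that list overlapped, at −1.73 to −1.42 on day 12 and −2.17 to −1.31 on day 7. Those of the cytotoxic list did so too, at −1.62 to −1.19 and −2.33 to −1.18. For T lymphocytes 3 slide pairs were positive and 1 negative. In the cytotoxic list 2 slide pairs were positive and 2 negative.

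Genes of antigen-presenting cells were also mostly higher on day 12. All 12 MHC class II genes had higher means, with a median of 0.39 and 2 at an unadjusted p under 0.05 (MAMU-DMA 0.47 and MAMU-DPA 0.60). Macrophage genes had a median of 0.40, with 3 of 14 higher at that p: the folate receptor FOLR2 (0.56), the lysosomal protein CD68 (0.46) and the complement component C1QA (0.45). The CD68 values of 1.52, 1.66, 1.48 and 1.61 lay above the highest day 7 value of 1.44. Array means of the MHC class II list overlapped, at 1.66 to 2.17 on day 12 and 1.37 to 2.33 on day 7. Those of the macrophage list did so too, at 0.47 to 1.07 and −0.09 to 0.97. In each of these lists 3 slide pairs were positive and 1 negative. CLEC9A, a receptor for dead cells on cross-presenting dendritic cells, was above background on 1 of 8 day 7 arrays and on all day 12 arrays, measured −3.58, −5.40, −4.18 and −3.46 on day 12 and −7.94 to −4.59 on day 7, and differed by 2.73 (adjusted p = 0.162). FLT3, the growth factor receptor of dendritic cell precursors, differed by 1.42 and was above background on 2 of 8 day 7 and 2 of 4 day 12 arrays. These were the 2 of 11 dendritic cell genes at an unadjusted p under 0.05; the list median was 0.36, and the lowest members were the maturation marker LAMP3 (−0.66) and the tryptophan-degrading enzyme IDO1 (−1.04). The neutrophil list had a median of −0.14 and the mast cell list −0.26, which with normexp were 0.13 and 0.13. The neutrophil gene at an unadjusted p under 0.05 was PADI4, a histone-modifying enzyme, which was higher by 0.49, and the mast cell gene was the histamine-forming enzyme HDC (−0.71).

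The epithelial defence genes lay at the other end. All 14 tested genes of mucosal antimicrobial and oxidant defence had lower means on day 12, 9 of them at an unadjusted p under 0.05, with a median of −1.05, and none passed the adjusted p. NOS2, the inducible nitric oxide synthase, measured −1.94, −2.95, 0.75 and −1.25 on day 12 and −1.07, 2.15 and 4.02 on day 7 (difference −3.28, adjusted p = 0.233). DUOX2, the epithelial producer of hydrogen peroxide, differed by −0.99. Its maturation factor DUOXA2 was well above background on 6 of 8 day 7 arrays and no day 12 array. DUOXA2 thus entered the test through day 7 alone, and was at least 2.88-fold lower on day 12 (adjusted p = 0.347 in limma). It is counted among the 14 and the 9 above, but its direction followed from that entry and adds nothing to the list. REG1A, a secreted lectin of regenerating epithelium, differed by −3.61, DMBT1, a mucin-like scavenger protein, by −2.17, the elastase inhibitor PI3 by −1.96 and the siderophore-binding lipocalin LCN2 by −1.102. The narrowest spread was that of PIGR, the transporter of IgA, at 1.1, 1.102, 0.73 and 1.02 on day 12 and 1.32 to 1.66 on day 7, which did not overlap (difference −0.50, adjusted p = 0.168). Array means of the list were −1.26, −1.21, −0.71 and −0.80 on day 12, and 7 of the 8 day 7 animals lay above them, between −0.22 and 1.67, while 7.4 Gy day 7 replicate 3 lay at −1.05. The same animal had the lowest CLDN2 value of day 7 and the lowest interferon mean, −1.20. The list's median difference from controls was 1.27 on day 7 and 0.06 on day 12.

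Inflammatory genes differed in both directions. In the TNF and NF-kB list 8 of 23 members were lower and 3 higher at an unadjusted p under 0.05, with a median of −0.31 that was −0.05 with array position as a block. The neutrophil-attracting chemokines CXCL1, CXCL2 and CXCL3 differed by −1.48, −1.502 and −1.03, the interleukins IL1A and IL1B by −1.57 and −1.104, and the apoptosis inhibitor BIRC3 by −0.96. CXCL3 measured −1.32, −1.01, −1.27 and −1.19 on day 12 and −1.08 to 0.62 on day 7. IL6 rose, as described above, and NFKBIA, the inhibitor of NF-kB, and the cytokine LIF differed by 0.44 and 0.35. TNF differed by −0.32 and IL8 by −0.47; the sign of the IL8 difference turned with array position as a block (0.09). Lymphoid chemokines had a median of −0.05 (0.17 with normexp), with CCL28, the epithelial chemokine for IgA-secreting cells, at −0.88 and CCL19 at −1.13.

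Interferon-response genes had a median of −0.65, with 8 of 23 lower at an unadjusted p under 0.05, but the sign of the median turned with array position as a block (0.28) and at position 4 alone (0.35). IFIT1, an antiviral RNA-binding protein, measured −1.85, −1.29, −1.04 and −1.56 on day 12 and −0.86, −0.52 and 0.36 on day 7 (difference −1.02, adjusted p = 0.198). IFI27 differed by −1.04, MX1 by −0.92 and the chemokine CXCL10 by −1.62. Both day 7 animals at position 4, replicates 3 and 4 at 7.4 Gy, had the lowest array means of that day, −1.20 and −0.97, and the 6 day 7 animals at position 3 lay between −0.63 and 0.56. The 4 slide pairs, which set position 4 against position 3, were all negative (−1.21, −0.79, −0.96 and −0.85). The part of array position in this difference cannot be told apart from that of day in the slide pairs.

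Targets of p53, the factor that arrests or kills cells with damaged DNA, had a median of −0.36. Of 18 tested, 13 had lower and 5 higher means on day 12, with 8 lower and none higher at an unadjusted p under 0.05. The higher members, with differences of at most 0.22, included MDM2, the inhibitor of p53 (0.11). Array means overlapped, at 0.19 to 0.34 on day 12 and 0.14 to 0.63 on day 7. SESN2, a stress-induced regulator of growth, measured 1.72, 1.39, 1.73 and 1.64 on day 12 and 1.86, 2.24 and 2.40 on day 7, without overlap (difference −0.58, adjusted p = 0.137). EDA2R, a death receptor of the TNF family, differed by −0.65 and lay at −0.34, −0.96, −0.56 and −0.38 on day 12, below every day 7 animal and above every control, whose highest value was −1.32. ZMAT3 (−0.45), the DNA repair factor DDB2 (−0.52), PHLDA3 (−0.54) and the apoptosis effector BAX (−0.42) were of like size. The median difference of the list from controls was 0.47 on day 7 and 0.19 on day 12. The medians at the 2 doses were −0.33 at 6.7 Gy and −0.35 at 7.4 Gy.

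Proliferation genes leaned lower. All 21 G2/M and mitosis genes had lower means on day 12, with a median of −0.28 that was −0.07 with array position as a block, and 2 reached an unadjusted p under 0.05: CDC20, an activator of the anaphase-promoting complex (−0.58, adjusted p = 0.379), and the survivin gene BIRC5 (−0.61). The DNA replication list had a median of −0.19, with 18 of 21 lower and none at that p. Genes of oxidative phosphorylation had a median of −0.18 with 17 of 18 lower, the largest being UQCRC2 of complex III (−0.51), for which 1 day 12 spot was left out. The glucocorticoid and fasting list had a median of 0.34. PDK4 differed by 0.61 between the days, and its day 7 range of 0.32 to 1.27 and day 12 range of 0.87 to 2.34 both lay above the highest control, at −0.19. The list mean was 0.02 in 6.7 Gy day 12 replicate 1 and 1.17 to 1.37 in the other day 12 animals. Circadian clock genes had a median of 0.16, tight junction genes 0.10, genes of cholesterol and fatty acid synthesis 0.01 and EGF receptor ligands −0.11 (0.13 with normexp), of which only the tight junction list had members at an unadjusted p under 0.05, CLDN2 and CLDN4.

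In the stroma and blood, 4 of 18 fibroblast and matrix genes were lower at an unadjusted p under 0.05, with a median of −0.28 that was 0.05 at array position 4 alone. MMP2, a collagenase of stromal cells, measured 2.55, 2.47, 2.51 and 2.59 on day 12 and 2.85 to 3.47 on day 7, without overlap (difference −0.62, adjusted p = 0.135). The type I collagen chain COL1A1 differed by −0.60 with 1 day 12 spot left out. The platelet list, of 5 tested genes, had a median of −0.37 and array means of −4.02 to −3.47 on day 12 against −3.32 to −2.41 on day 7. Its member PF4, a chemokine of platelet granules, was above background on all 8 day 7 arrays and 1 of 4 day 12 arrays (difference −2.31, adjusted p = 0.264). Endothelium (−0.13), enteric neurons and glia (−0.02) and adipocytes (−0.11) had medians nearer to 0, each above 0 with normexp, and VWF differed by −0.32.

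List medians were also taken at each dose. The enteroendocrine median was 0.84 at 6.7 Gy and 0.53 at 7.4 Gy, B lymphocytes 0.74 and 0.57, plasma cells 0.40 and 0.93, mucosal defence −1.16 and −0.94, and interferon −1.08 and −0.38. Of 14397 genes, 170 had a higher day change at 7.4 Gy than at 6.7 Gy at an unadjusted limma p under 0.05, and 227 had a lower one. Together these are fewer than such a p gives by chance alone. Among them were 2 of 14 enteroendocrine genes, both with the lower change at 7.4 Gy. No member of the B-lymphocyte, plasma cell, mucosal defence, interferon or p53 lists was among them.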

How the data were processed

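RNA from the colon wall of 24 macaques was hybridised by the authors to 1-colour Agilent rhesus arrays, 1 array per animal. The scanner files hold processed intensities that the authors obtained with Feature Extraction 11.0.1.1, already corrected for local background per the file headers. The authors also deposited log2 values from GeneSpring GX 11.0, scaled to the 75th percentile and centred on each probe's median, which were used as an alternative. No columns of the authors' own comparisons were used.

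Control spots were left out, outlier spots were set to missing and spots of a probe were averaged. Probes detected (well above background) on 2 or more of the 12 arrays were tested. Day and dose were fitted with limma 3.58.1 in R 4.3.3 (lmFit and eBayes, two-sided), with Benjamini-Hochberg adjustment over all probes. A call needed an adjusted p under 0.05 and at least a 2-fold difference. The day change at each dose, its difference between doses and the levels against 4 controls came from fits of group means. The number of arrays limits the precision.

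Of 43603 probes, the array table named 18640 and RefSeq accessions 3268 more; 1887 had a LOC number only and 19808 no name. The array layout rests on rheMac2, no coordinates or sequences are given, and names can be old. A gene stood for its brightest probe. Genes named were the called genes with no overlap between days, at most 12 per direction, filled to 5 by the lowest p; the called members of each list or, with none called, the member with the lowest p; and a panel of 15 genes. A gene that this rule names is left out here. Other list members at an unadjusted p under 0.05 were named after their values were seen. The comparison, lists and panel were chosen with earlier results of these data known.

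Same-numbered animals of a dose are different animals, and their deviations from group means correlated at −0.18 to 0.20, so numbers were not treated as pairs. Alternatives covered background correction, scaling, filters, test, blocks, arrays fitted together and leaving out each array.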

Additional observations from a re-analysis of the deposited data

Results flagged for a closer look

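In 209 groups of 4 animals, taken over the named genes and called probes, the highest or lowest animal was set apart from the other 3 by Dixon's criterion in 11; chance alone sets apart about 1 group in 20, so this number is near that rate. No group of day 12 could be examined, since each held 2 animals.

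In the day 7 animals at 6.7 Gy, replicate 2 had the highest CD2 signal, 0.928 on the log2 scale, against 0.131 to 0.237 in the others. At 7.4 Gy on day 7, replicate 2 stood apart for MZB1 (1.979, others 1.294 to 1.403), for the called NDUFAF5 probe (−2.322, others −1.441 to −1.327) and for the second unnamed called probe (−2.231, others −1.481 to −1.331). Replicate 3 stood apart for RGS13 (−3.802, others −7.452 to −6.843) and SESN2 (2.127, others 2.362 to 2.400). Replicate 4 stood apart for HDC (−3.845, others −2.648 to −2.534) and TSC22D3 (1.207, others 0.912 to 0.953). In the controls, replicate 1 was lowest for C4H6orf52 (−1.769, others −0.390 to −0.270) and highest for 2 unnamed called probes (−2.922, others −4.843 to −4.705, and −0.756, others −1.727 to −1.586).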

How the results depend on the processing

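The 20 called probes became 9 with no filter on dim probes, 8 with the methods' t-test (p adjusted in the same way), 47 with all 24 arrays in the fit (14 of them shared with the 20), 34 with slide as a random block (all 20 among them), 7 with scan day as a block, 1 at array position 4 only, and 0 with slide or with array position as a fixed block. The settings chosen after seeing the data, the second scan day only and the same with slide as a block, gave 12 and 0. The replicate numbers did not pair the animals; with the replicate number as a block 0 probes were called in the whole comparison, 0 at 6.7 Gy and 0 at 7.4 Gy. Normexp gave 23, of which 11 were among the 20. Other scalings, the deposited table, a stricter filter, outliers kept, no fold limit, trend and robust settings and no dose term gave 17 to 30. Leaving out 1 array gave 5 to 70: 9 without 6.7 Gy day 7 replicate 1, 11 without replicate 3 and 10 without replicate 4; 9, 54, 70 and 10 without 7.4 Gy day 7 replicates 1, 2, 3 and 4; 6 and 5 without 6.7 Gy day 12 replicates 1 and 2; and 6 without 7.4 Gy day 12 replicate 1. At 6.7 Gy the 4 calls became 2 to 24 on leaving out 1 array (24 without 7.4 Gy day 7 replicate 2, 12 without 6.7 Gy day 12 replicate 2, where the lone remaining animal is assumed to vary like the others). At 7.4 Gy the 1 call became 4 with quantile normalization, 0 with no filter, 3 with all 24 arrays, 11 with slide as a random block and 0 to 17 on leaving out 1 array (17 without 7.4 Gy day 7 replicate 2). The difference between doses gave 1 call with quantile normalization and 1 with slide as a random block. Day 12 against controls gave 24 calls with all 24 arrays in place of 15. The cause of these shifts was not tested. ABCC2 stayed called in 28 of 33 alternatives, ACP5 in 24, NKAPL in 23, LGR6 in 16, BTLA and C4H6orf52 in 14, and IL6 and RBM3 in 13. The sign turned for IL8 with array position as a block (0.092) and at position 4 only (0.07), for VWF at position 4 only (0.059), and for CCNO with the replicate block (0.501) and without 7.4 Gy day 12 replicate 1 (0.117, against −1.186 without 6.7 Gy day 12 replicate 1). The median of all probes shifted by 0.11 with spike-in scaling and 0.19 with normexp, against 0.01. Of 36 list medians, 20 kept their sign in all of 21 alternatives, and the mucosal defence median ranged from −1.23 to −0.58. Signal over background limits genes measured above it on few arrays of a day, such as PSD2, LCN15, CPS1, APOB, PF4, DUOXA2, FCRL2 and CLEC9A. FLT3, ANKRD65, OPRM1, CLDN2 and ALB were limited in the same way.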

Other observations

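A panel of genes that earlier results on these data had named included genes not described above, and no panel gene was called. GPR110, an adhesion G-protein-coupled receptor, measured −5.56, −5.45, −4.24 and −4.30 on day 12 and −4.46, −1.88 and 0.05 as the lowest, median and highest on day 7, a difference of −2.95. ANKRD65 measured −4.79, −5.84, −4.43 and −4.00 on day 12, wholly below the day 7 range of −3.59 to −1.97, and was above background on 1 day 12 array (difference −1.94). The albumin gene ALB differed by −2.35, with a day 7 range of −5.40 to 0.44, and CCNO, a cyclin of multiciliated cells, by −0.55. On day 12 GPR110 was above background on 3 of 4 arrays and ALB on 2 of 4. EZR, which links actin to the microvillus membrane, differed by −0.42. SERPINA2 differed by 0.77 and its day 12 values of −1.40, −1.49, −0.99 and −0.04 lay below the control median of 1.22.

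Some genes outside the lists, chosen after their values were seen, had values that did not overlap between the days without passing the adjusted p. RGS1, a regulator of chemokine receptor signals in activated lymphocytes, measured 1.03, 0.78, 1.41 and 0.65 on day 12 and −0.39, −0.12 and 0.24 on day 7, a difference of 1.06. LRMP, a membrane protein of lymphocytes and tuft cells, differed by 1.44, with −0.10 and −0.95 at 6.7 Gy and −1.43 and −1.61 at 7.4 Gy on day 12, against −3.16 to −1.83 on day 7. SLC23A2, a vitamin C transporter, differed by 1.31. OPRM1, the mu opioid receptor, differed by −1.85 and was above background on 6 of 8 day 7 arrays and 1 of 4 day 12 arrays.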
